A study of Mus musculus with 3 samples.

Results

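Nkx2.2 occupancy at the genes of the MAP kinase cascade was described in mouse oligodendrocytes (OLs) and in the oligodendrocyte progenitor cells (OPCs) they were made from. The members are all genes of the deposited region table whose symbol starts with Map2k, Map3k, Map4k or Mapk, and every region that lists such a gene was kept. This gave 44 genes of the 14473 named in the table and 129 regions of the 37271 in it. No region listed 2 members, and 42 of the 129 regions also listed a gene outside the cascade. Of 54 protein-coding RefSeq genes with these prefixes, 41 are members and 3 (Map3k20, Map3k7cl and Mapk1ip1l) appear in the table under other symbols. The other 3 members have been renamed since. For the 10 remaining RefSeq genes, namely Mapk8, Mapk11, Mapk13, Mapk15, Map3k6, Map3k7, Map3k13, Map3k15, Map3k19 and Map3k21, no region is listed.

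The study compared 2 chromatin immunoprecipitation (ChIP) libraries made with a monoclonal antibody to Nkx2.2, a homeodomain transcription factor of the oligodendrocyte lineage. OLs were postmitotic cells obtained in culture by removing PDGF-AA and giving thyroid hormone (T3, 40 ng/mL) over 48 h, with no removal of NT-3 or CNTF named. OPCs were proliferating cells kept with 10 ng/mL PDGF-AA, 1 ng/mL NT-3 and 10 ng/mL CNTF, the medium in which all cells had first been grown. The cells of both groups came from cortices of C57BL/6 mice at postnatal day 7, were isolated by binding to an antibody against PDGFRA, the alpha receptor of PDGF, and were used at 1.5e7 per library. Each state has 1 library, the labels name no deleted or added gene, and an input library of both cell types was not analysed here. Without replicates there is no test between OLs and OPCs, no error on a value, and no replicate check of any difference. Binding of a factor is not expression, so the identity of the cells cannot be checked from these values.

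The MAP kinase cascade passes a signal from a MAP4K or a small GTPase to a MAP3K, from there to a MAP2K, and from the MAP2K to a MAP kinase, each kinase phosphorylating the next. Its main arms end in the ERK kinases, in ERK5, in the JNKs and in the p38 kinases, and scaffold proteins hold kinases of an arm together. In the oligodendrocyte lineage, growth factors such as PDGF act through the ERK kinases, which also influence how thick myelin becomes, and p38 activity is known to take part in OPC differentiation.

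Nkx2.2 regions lay at the starts of 27 of the 44 genes, and promoter sequences of 4 of these genes are printed because the results below turn on their start regions. They are RefSeq windows of build GRCm38.p6, 250 bases before to 50 after a gene start, 5′ to 3′ on the strand of the gene. The windows are chr11:106084337-106084636 (+) for Map3k3, chr5:121545843-121546142 (-) for Mapkapk5, chr1:131097794-131098093 (-) for Mapkapk2 and chr8:4238490-4238789 (+) for Map2k7. The core motif of Nkx2.2, AAGTG or CACTT on the other strand, is in capitals. Map3k3 has the strongest start region of the members, Mapkapk5 the highest start region of the downstream kinases, Mapkapk2 the largest ratio of OL to OPC signal at a start, and Map2k7 a match to the longer motif TNAAGTG.
Map3k3: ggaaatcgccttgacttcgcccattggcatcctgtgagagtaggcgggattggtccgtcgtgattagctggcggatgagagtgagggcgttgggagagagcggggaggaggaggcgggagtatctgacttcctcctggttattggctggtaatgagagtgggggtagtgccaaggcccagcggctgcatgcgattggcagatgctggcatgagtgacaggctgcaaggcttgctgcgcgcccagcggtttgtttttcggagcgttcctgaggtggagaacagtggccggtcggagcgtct
Mapkapk5: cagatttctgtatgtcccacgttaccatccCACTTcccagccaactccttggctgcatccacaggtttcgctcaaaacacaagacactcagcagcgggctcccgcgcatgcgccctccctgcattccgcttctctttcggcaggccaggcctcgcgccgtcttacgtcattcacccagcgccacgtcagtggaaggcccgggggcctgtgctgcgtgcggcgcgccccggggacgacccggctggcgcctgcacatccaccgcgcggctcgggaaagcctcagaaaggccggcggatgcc
Mapkapk2: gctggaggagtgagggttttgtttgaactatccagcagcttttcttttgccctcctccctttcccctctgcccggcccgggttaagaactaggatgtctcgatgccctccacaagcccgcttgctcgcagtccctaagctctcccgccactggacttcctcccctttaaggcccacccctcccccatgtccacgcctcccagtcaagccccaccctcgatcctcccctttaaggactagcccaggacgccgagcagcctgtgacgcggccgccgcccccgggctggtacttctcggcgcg
Map2k7: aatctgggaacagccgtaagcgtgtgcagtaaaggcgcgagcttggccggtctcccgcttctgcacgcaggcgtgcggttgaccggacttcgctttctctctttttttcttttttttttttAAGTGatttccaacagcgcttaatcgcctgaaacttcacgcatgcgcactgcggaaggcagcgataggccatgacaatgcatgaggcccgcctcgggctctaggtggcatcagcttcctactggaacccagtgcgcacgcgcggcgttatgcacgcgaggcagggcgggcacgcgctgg

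The RefSeq table gave 46 windows for 34 members. AAGTG or CACTT was found in 13 of the 46 windows (28.3%), against 46.4% of the 32851 windows of all genes. Of the 30 windows of members with a region at the start, 8 (26.7%) held it. The longer TNAAGTG or CACTTNA, which contains the shorter motif, was found in 6 of the 46 member windows (13.0%) and in 11.5% of all windows. Member windows were richer in G and C, at 63.3% at the median against 52.7% for all windows, and the part of base composition in these shares was not tested. A match describes the letters of the window and is not a bound site. The deposited regions are on build mm9, so their coordinates cannot be set beside those of the windows, and the gene starts of the sources may differ.

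Nkx2.2 signal was on the whole higher in OLs than in OPCs at the cascade genes, with a median ratio close to that of all regions. The values are the average signal of a region, a quantity whose scale between libraries the authors did not state and whose depth is unknown. The 129 regions had a median signal of 5.31 in OL and 3.08 in OPC, against 5.0 and 3.00 over all regions. The ratio is given as log2((OL + 1) / (OPC + 1)), where the pseudocount of 1 understates the ratio of weak regions. Its median was 0.77 over the member regions and 0.74 over all 37271. More OL than OPC signal was seen at 107 of the 129 regions (82.9%), against 77.4% of all regions.

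Log2 ratios of 1 or more were found at 46 member regions (35.7%, background 37.5% of all regions) and of -1 or less at 7 (5.43%, background 7.03%). This split depends on the scaling. With the median of all regions called in both libraries set to 0, every ratio moved by 0.24. Then 30 regions were at 1 or more (23.3%, background 27.2%) and 10 at -1 or less (7.75%, background 10.1%). With the median of all regions set to 0, a shift of 0.74, the counts were 15 (11.6%, background 13.2%) and 16 (12.4%, background 17.5%). Of the 129 regions, 70 then lay above 0. Shares near the background are not a property of the cascade genes.

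By the authors' calls, 117 of the 129 regions were called in OL (background 85.3%) and 51 in OPC (background 38.6%). There were 78 regions called in OL only (background 61.4%), 39 in both (background 23.8%) and 12 in OPC only (background 14.7%). Of the 44 genes, 42 had a region called in OL (background 94.8% of genes) and 28 one called in OPC (background 57.3%). Map3k5 and Mapk4 were the 2 genes without an OL call. The 16 genes without an OPC call included the MAP2K genes Map2k2, Map2k3 and Map2k7 and the MAP kinase genes Mapk6, Mapk9 and Mapk12.

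**Figure D1:**
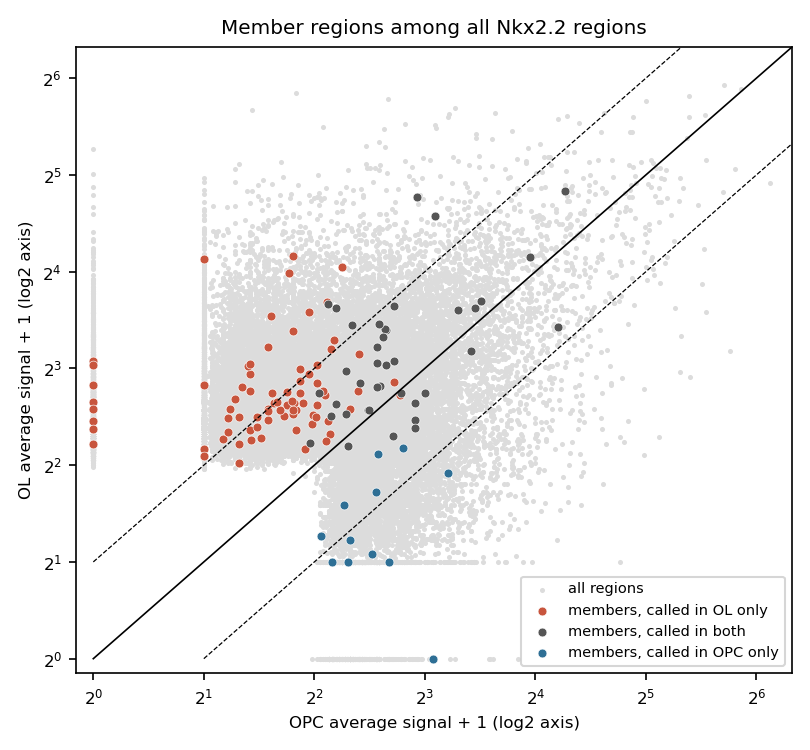
Average Nkx2.2 signal of each region plus 1, OL on the vertical and OPC on the horizontal log2 axis, with all 37271 regions in grey and the 129 member regions coloured by the library in which they were called. The solid line marks equal signal and the dashed lines a log2 ratio of 1 and of -1, with 46 member regions on or above the upper line and 7 on or below the lower.

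For the genes, each was represented by its region with the highest signal in either library. The median log2 ratio was 0.84 over the 44 members and 0.72 over all genes. The OL value was the greater at 39 members, or at 34 and 27 of them under the centrings given above. The share of 77.4% with more OL signal is over all single regions, weak ones and those without a gene included. It is thus not the background of these counts of genes. Of the members, 18 had a ratio of 1 or more (40.9%, background 34.7%) and 1, Mapk14, had one of -1 or less (2.27%, background 4.19%). Members had 2 regions at the median, as did all genes, and up to 13 regions.

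**Figure D2:**
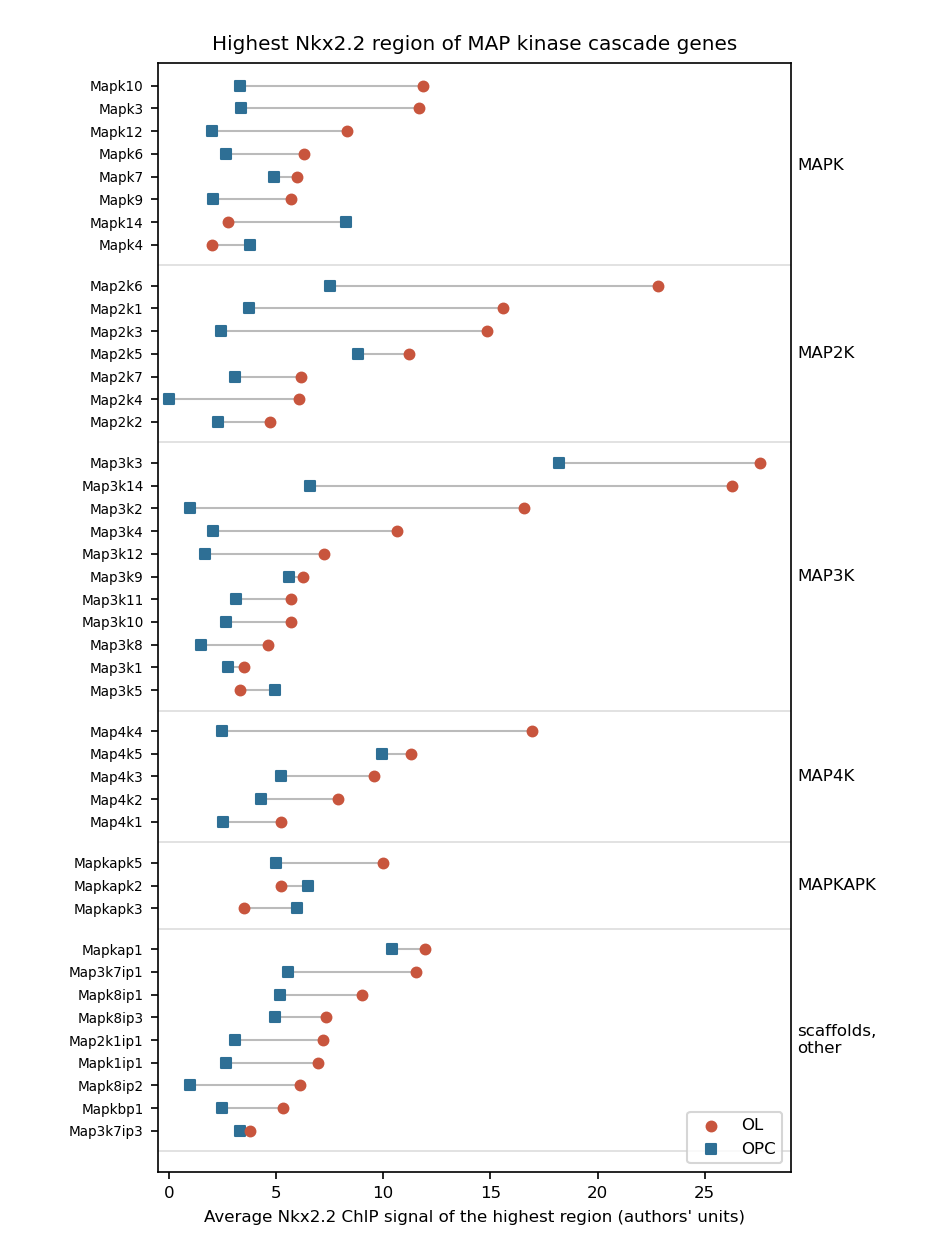
Average Nkx2.2 signal in OL (circles) and in OPC (squares) at the highest region of 43 member genes, grouped by role and ordered by OL signal, in the authors' units. The OL value is the greater at 38 genes and the OPC value at 5, Mapk14, Mapk4, Map3k5, Mapkapk2 and Mapkapk3.

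Among the MAP kinase genes, ERK1 and JNK2 genes had more OL signal at every region, while the p38 alpha and JNK3 genes held regions of both directions. Regions were listed for 9 of 13 genes. Over their 24 regions the median log2 ratio was 0.87. Of these regions 11 were at 1 or more (45.8%, background 37.5%) and 2 at -1 or less (8.33%, background 7.03%). By highest region 5 genes were at 1 or more (background 34.7% of genes), namely Mapk3, Mapk6, Mapk9, Mapk10 and Mapk12.

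Mapk3, which encodes ERK1, had 4 regions. The highest, 1656 bp into the gene at chr7:133904201-133905392 (build mm9, as for all regions given here), had a signal of 11.7 in OL and 3.35 in OPC, with peaks of 50 and 8. The region at its start had 5.8 in OL against 1.67 in OPC, and the other two had 4.89 and 5.82 in OL, and 2.00 and 4.27 in OPC. OL signal was thus the higher at all 4, and 1 of them was called in OPC. The lowest log2 ratio of the 4, 0.37, was that of the region 3040 bp into the gene.

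The JNK genes differed in how their regions were split. Mapk9, which encodes JNK2, had signals of 4.62, 5.70, 3.67 and 5.0 in OL and of 1.33, 2.06, 0 and 1.36 in OPC, in order along the gene. All 4 were called in OL only and all 4 had a ratio above 1. Mapk10, which encodes the neural JNK3, had 7 regions. Its highest, 116110 bp into the gene, had 11.9 in OL and 3.33 in OPC. Another region, 19468 bp in at chr5:103620727-103621043, was listed at 0 in OL and had 7.40 in OPC, and it is the 1 member region listed at 0 in OL. OL signal was the higher at 4 of the 7 regions and OPC signal at 3, with a mean log2 ratio of 0.22.

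Mapk14, which encodes p38 alpha, had opposite values at its start and inside the gene. The start region had 6.22 in OL and 4.32 in OPC, with calls in both. A region 6962 bp into the gene, chr17:28835108-28835597, had 2.78 in OL and 8.27 in OPC, a log2 ratio of -1.29, and was called in OPC only. Both regions also listed Slc26a8. Mapk12, the gene of p38 gamma, had its 2 regions downstream, the higher with 8.33 in OL against 2.00 in OPC at the start of Hdac10. The other had 5.60 in OL and 5.85 in OPC, with peaks of 10 and 13, although it was called in OL only.

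The other MAP kinase genes had few regions. Mapk7, which encodes ERK5, had 6.00 in OL against 4.91 in OPC at its start. A second region of Mapk7, downstream, had 4.93 in OL and 2.50 in OPC. Mapk6, the gene of the atypical kinase ERK3, had 6.30 in OL against 2.65 in OPC at its start. Mapk4, the gene of ERK4, had its 1 region 50524 bp into the gene with 2.00 in OL and 3.81 in OPC. The 2 atypical kinase genes thus lay on opposite sides of equal signal.

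All 7 MAP2K genes, which encode the kinases that phosphorylate MAP kinases, had regions. Their highest region had more OL signal in each, or in 6 of the 7 with the median of all regions set to 0. Over all 44 members these counts were 39 and 27. The 28 regions of the MAP2K genes had a median log2 ratio of 0.85. Of these, 11 had a ratio of 1 or more (39.3%, background 37.5%) and 0 one of -1 or less (background 7.03%). OL alone had a call at 22 of them (78.6%, background 61.4%), 6 were called in both (21.4%, background 23.8%) and 0 in OPC only (background 14.7%). By highest region 4 genes were at 1 or more (background 34.7% of genes), Map2k1, Map2k3, Map2k4 and Map2k6.

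Map2k6, whose product MKK6 activates p38, had the highest OL signal of the 7 and also the highest OPC signal, at different regions. A region 2884 bp upstream of its start, chr11:110257229-110257876, had 22.8 in OL and 7.50 in OPC, with peaks of 68 and 12. Far inside the gene, 79999 bp from the start at chr11:110340095-110340775, the values were 9.76 in OL and 17.4 in OPC. Both regions were called in both libraries. The upstream region was number 280 of the 37271 by OL signal and the inner region number 284 by OPC signal. Its other 3 regions had 3.65, 4.95 and 5.62 in OL, and 1.5, 2.22 and 3.29 in OPC, the first of them at the start. Map2k3, whose product MKK3 also activates p38, had 14.9 in OL against 2.42 in OPC at its highest region, 22284 bp from the start and downstream of the gene. None of its 4 regions was called in OPC.

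Map2k1, which encodes MEK1, an activator of ERK1, had 6 regions. Its highest, 34104 bp into the gene at chr9:64067057-64067560, had 15.6 in OL and 3.75 in OPC, a log2 ratio of 1.81. The next region, 37050 bp in, had averages of 8.05 in OL and 9.67 in OPC but peaks of 16 and 14, so which library was higher there depends on the measure. Map2k2, which encodes MEK2, had 1 region, with 4.70 in OL and 2.31 in OPC. Map2k5, whose product MEK5 activates ERK5, had 7 regions, with 4.38 to 11.2 in OL and 0 to 8.84 in OPC. OL signal was higher at all 7, and 5 had a ratio of 1 or more. Its highest region, 48654 bp into the gene, was the 1 of the 7 called in OPC, with 11.2 in OL and 8.84 in OPC.

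The 2 MAP2K genes of the JNK arm had highest regions above that of Map2k2 and below those of the other MAP2K genes in OL. Map2k4 had 6.10 in OL and was listed at 0 in OPC at a region 26853 bp into the gene, but at its start the values were 4.94 and 4.62, with calls in both libraries. Its start region had the lowest log2 ratio of all member start regions, 0.08. Map2k7 had 5.26 in OL against 2.74 in OPC at its start, and 6.19 and 3.07 at a region downstream that lies at the start of Snapc2.

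**Figure D3:**
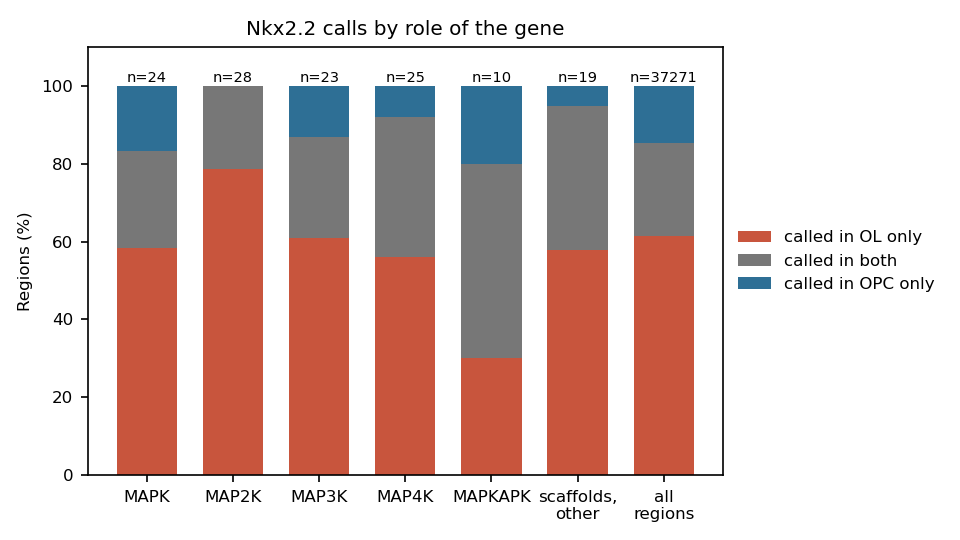
Share of regions called in OL only, in both libraries and in OPC only, in percent, for each role of member gene and for all regions, with the number of regions above each bar. None of the 28 MAP2K regions was called in OPC only, and 7 of the 10 regions of the MAPK-activated kinases (MAPKAPK) were called in OPC.

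The MAP3K genes held the strongest member regions of either library. Of 18 genes 11 had regions under their own symbol, and Map3k20, listed under another symbol, is given with the partner genes. The median log2 ratio was 0.70 over 23 regions. Of these, 7 were at 1 or more (30.4%, background 37.5%) and 2 at -1 or less (8.70%, background 7.03%). By highest region 5 genes were at 1 or more (background 34.7% of genes), Map3k2, Map3k4, Map3k8, Map3k12 and Map3k14.

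Map3k3 encodes MEKK3, a kinase upstream of MEK5 and other MAP2Ks. The region at its start, chr11:105945122-105946333, whose middle lies 489 bp upstream, had 27.6 in OL and 18.2 in OPC, with peaks of 114 and 66. Both values were the highest of any member region. Among the 6614 regions of the table within 1 kb of a gene start, it was number 7 by OL signal and number 8 by OPC signal. Its log2 ratio was 0.57, so it was strong in both libraries. The next highest OL value at a member start was 11.4, at Map3k7ip1. The printed Map3k3 window held no AAGTG or CACTT. Its 1 other region, 17700 bp into the gene, had 5.31 in OL and was listed at 0 in OPC.

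Map3k2, the gene of the related MEKK2, had its signal elsewhere. A region 21042 bp into the gene, chr18:32343366-32344205, had 16.6 in OL and 1.00 in OPC, the largest positive log2 ratio of the members, 3.13. At its start the values were 5.19 and 3.59, with calls in both libraries. Map3k14 encodes NIK, a kinase known for the noncanonical NF-kappaB pathway. Its 1 region, 19615 bp into the gene at chr11:103108847-103109353, had 26.3 in OL and 6.60 in OPC. The 3 highest OL values of the members, at Map3k3, Map3k14 and Map2k6, all lay on chromosome 11, which holds 7 of the 44 genes.

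The other MAP3K genes had lower values. Map3k4, the gene of MEKK4, had 10.7 in OL against 2.05 in OPC at its highest region, which lies beyond the gene's end. Map3k12, which encodes the neuronal kinase DLK, had 7.24 in OL against 1.67 in OPC at a region downstream of it that also lists Pcbp2. Map3k8, which encodes TPL2, had 4.50 in OL and was listed at 0 in OPC 2007 bp into the gene. These genes had more OL signal at all their regions.

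Map3k5, which encodes the stress kinase ASK1, was the exception among the MAP3K genes in having no OL call. Its 2 regions, 111770 and 170199 bp into the gene, had 3.33 and 1.00 in OL, and 4.97 and 3.93 in OPC. Map3k11, the gene of MLK3, had 5.70 in OL against 3.13 in OPC at its start, but 1.00 in OL against 5.38 in OPC at a region downstream of it that also lists Kcnk7 and Ehbp1l1. The genes of the related kinases MLK1, MLK2 and MEKK1, namely Map3k9, Map3k10 and Map3k1, had highest regions of 6.25, 5.69 and 3.50 in OL, and of 5.60, 2.67 and 2.78 in OPC.

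The MAP4K genes encode Ste20-type kinases that act on MAP3Ks. All 5 listed had a highest region with more OL signal, or 4 of the 5 with the median of all regions set to 0. Over all 44 members these counts were 39 and 27. The 25 regions of the MAP4K genes had a median log2 ratio of 0.77. Of these, 8 were at 1 or more (32.0%, background 37.5%) and 1 at -1 or less (4.0%, background 7.03%). Map4k4, the gene with the most regions of all members, had 13. A region 34508 bp into the gene had 17.0 in OL and 2.50 in OPC. Another 46768 bp in, chr1:40004213-40005474, had 16.8 in OL and 14.4 in OPC, so a region with a large difference and one with nearly equal signal lay about as high in OL.

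Along Map4k4 the order of the libraries changed with position. The regions 1472 and 17598 bp into the gene had 2.31 and 3.93 in OL, and 4.88 and 5.53 in OPC. A region 76290 bp in had 1.11 in OL and 4.74 in OPC, a log2 ratio of -1.44. The other 10 had more OL signal, 6 of them with a ratio of 1 or more, and 11 of the 13 were called in OL and 5 in OPC. Map4k5 had 6 regions, 4 of them called in OPC and all 6 in OL. Its highest, 78715 bp into the gene, had 11.3 in OL and 9.96 in OPC. Map4k3 had 9.58 in OL against 5.21 in OPC at its highest region, Map4k2 had 7.88 and 4.29, and Map4k1, which encodes HPK1, had 5.24 and 2.53.

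**Figure D4:**
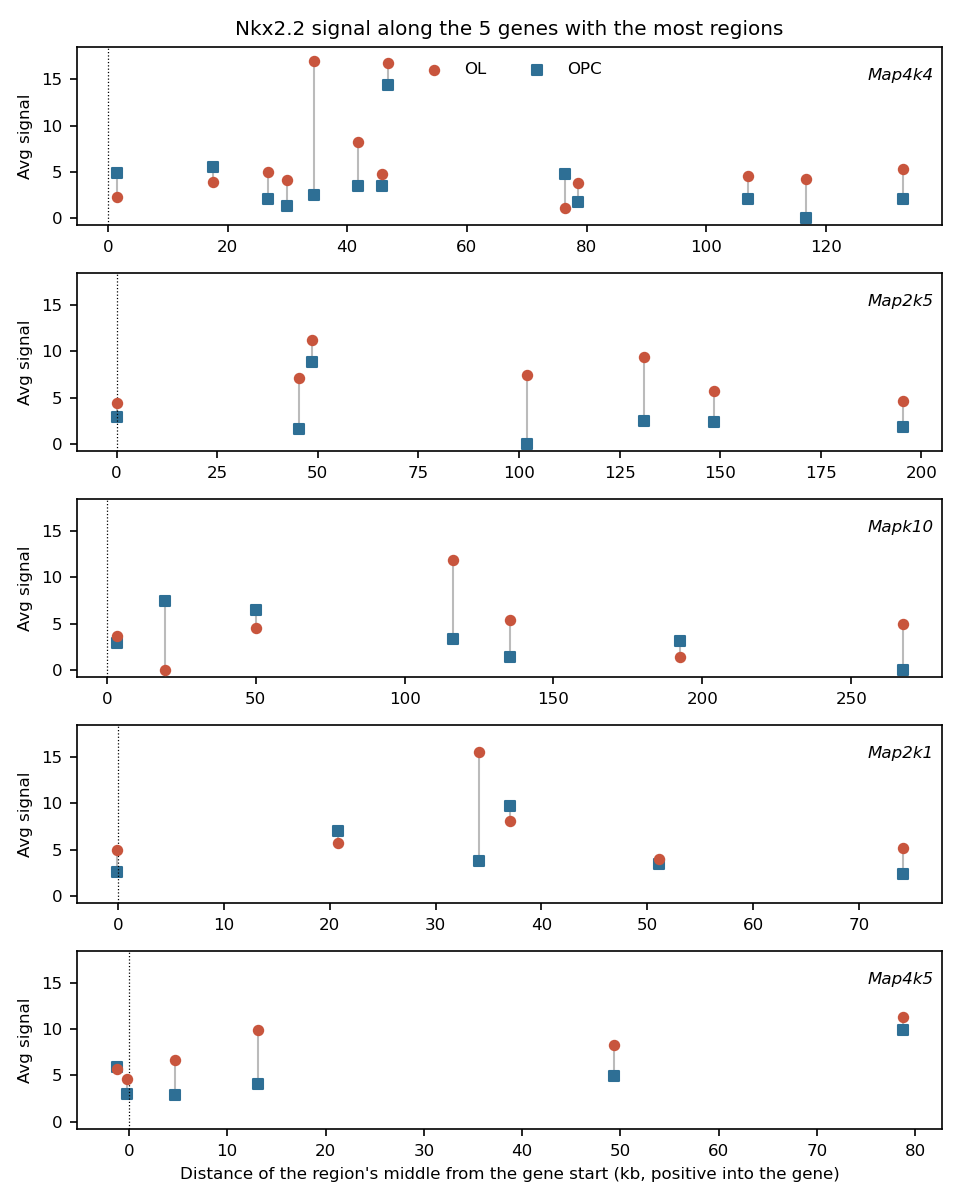
Average Nkx2.2 signal in OL (circles) and OPC (squares) at each region of Map4k4, Map2k5, Mapk10, Map2k1 and Map4k5, against the distance of the region's middle from the deposited gene start in kb, with the dotted line at the start. OL signal is higher at all 7 regions of Map2k5, while each of the other genes has at least 1 region with more OPC signal.

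The 3 genes of the MAPK-activated kinases, which act downstream of p38 and atypical MAP kinases, had OPC calls at 7 of their 10 regions, where the background is 38.6%. OL calls were made at 8 of the 10 (background 85.3%), and the median log2 ratio of the 10 was -0.01. With 10 regions in 3 genes this is a description of these genes. Mapkapk2, whose product MK2 acts on proteins that control mRNA stability, had 6.00 in OL against 1.55 in OPC at its start. That log2 ratio, 1.46, was the largest at any member start. Its 4 other regions, 3 inside and 1 downstream of the gene, had 3.6 to 5.25 in OL and 3.93 to 6.5 in OPC and were all called in both libraries. Mapkapk3 had 3.52 in OL and 5.96 in OPC inside the gene, and 1.33 and 4.0 downstream of it, both called in OPC only. Mapkapk5 had 10.0 in OL against 5.0 in OPC at its start. A second region, 19515 bp from the start of Mapkapk5, had 7.17 in OL and was listed at 0 in OPC.

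The scaffolds, adaptors and other members, 9 genes with 19 regions, had a median log2 ratio of 0.77. OL signal was higher at 18 of the 19 regions (94.7%, background 77.4%), or at 10 with the median of all regions set to 0. Of the 19, 7 were at 1 or more (36.8%, background 37.5%) and 1 at -1 or less (5.26%, background 7.03%). Map3k7ip1, now named Tab1, encodes an activating partner of the kinase TAK1. Its start region, 10 bp upstream, had 11.4 in OL against 3.58 in OPC, and regions 1181 and 4750 bp into the gene had 8.82 and 11.5 in OL, and 3.52 and 5.58 in OPC. The last region, 12316 bp in, had 1.00 in OL and 3.46 in OPC. Map3k7ip3, now Tab3 and of the same adaptor family, had 3.77 in OL against 3.30 in OPC at its start. No region is listed for Map3k7, the gene of TAK1 itself.

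The 3 genes of the JNK scaffolds JIP1, JIP2 and JIP3 had more OL signal at all 5 of their regions (background 77.4% of all regions). The log2 ratios of these regions ran from 0.36 to 1.83, where the median of all regions was 0.74. Mapk8ip1 had 9.0 in OL against 5.17 in OPC at a region at the start of Pex16, Mapk8ip2 had 6.12 and 1.00 at a region 9245 bp upstream, and Mapk8ip3 had 7.31 and 4.93 at its start. Map2k1ip1, now Lamtor3, whose product binds MEK1 and ERK1, had 7.19 in OL against 3.08 in OPC at its start. Mapkap1 encodes the mTORC2 subunit SIN1 and belongs here by its symbol. It had 11.9 in OL against 10.4 in OPC at a region 131311 bp into the gene, and 11.0 and 2.86 at another 31406 bp in. Mapk1ip1 had 6.96 in OL and 2.67 in OPC, and Mapkbp1, which encodes a JNK-binding protein, had 5.31 and 2.47, both at their starts.

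For 3 of the arms, the median log2 ratio of regions was 1.15 for the JNK arm (16 regions), 1.00 for the ERK5 arm (13 regions) and 0.63 for the p38 arm (13 regions). Ratios of 1 or more were seen at 9 (56.25%), 7 (53.8%) and 4 (30.8%) of these regions, against a background of 37.5% of all regions. These arms hold 4 genes with regions each, and the spread among regions of a gene such as Mapk10, from -3.07 to 2.59, was wider than the distance between the arms.

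The start regions of the cascade genes all had more OL signal on the deposited scale, and those inside genes had ratios of a wider range. Within 1 kb of the start of a member there were 28 regions in 27 genes. Of these regions 25 had a CpG island (89.3%, background 83.3% of regions at a gene start). Placed by the start of any listed gene, 29.5% of member regions lay at a start, against 17.7% of all regions. All regions include those that list no gene, so these shares are not like for like. A background for the 27 genes is not given. The signal of the 28 regions ran from 3.65 to 27.6 in OL and from 1.33 to 18.2 in OPC. OL signal was higher at all 28, or at 25 and 14 of them under the centrings given above, with log2 ratios of 0.08 to 1.46 and a median of 0.72. Over all regions at the start of any listed gene the median was 0.60, and 5717 of 6614 had more OL signal. The 38 member regions placed in this way had a median of 0.75, with 10 at 1 or more (26.3%). Ratios of 1 or more were seen at 8 of the 28 member start regions (28.6%, background 19.8% of regions at a gene start) and of -1 or less at 0 (background 1.54%). All 28 were called in OL and 10 in OPC (35.7%, background 40.6%). The genes of these regions include Map2k4, Map3k2, Map3k3, Map3k7ip1, Map3k11, Mapk7, Mapk8ip3, Mapk14 and Mapkapk5.

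Inside the genes and more than 1 kb from the start lay 75 regions, 2 of them with a CpG island (2.67%, background 3.44% of regions in a gene). Their median log2 ratio was 0.77, with 30 at 1 or more (40.0%, background 43.4% of regions in a gene) and 5 at -1 or less (6.67%, background 7.19%). OPC calls were seen at 33 of them (44.0%, background 36.4%). Placed by any listed gene, as the background is, 78 member regions lay inside a gene. Of these 30 were at 1 or more (38.5%), 6 at -1 or less (7.69%) and 35 called in OPC (44.9%). All 8 member regions listed at 0 in OPC lay inside genes, at Mapk9, Mapk10, Map2k4, Map2k5, Map3k3, Map3k8, Map4k4 and Mapkapk5. In the whole table, 1172 of the 2253 regions listed at 0 in OPC lay inside a gene. Of the 12 regions called in OPC only, 10 lay inside genes and 2 downstream, and none was at a start or in a CpG island. Such regions are few in the whole table too. Of all regions at a gene start 7.08% were called in OPC only, and of all regions called in OPC only 7.99% had a CpG island. No average between 0 and 1 occurs in either library, and 3 member regions stand at exactly 1.00 in OL and 4 in OPC. The part of this floor in the ratios of weak regions was not tested.

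**Figure D5:**
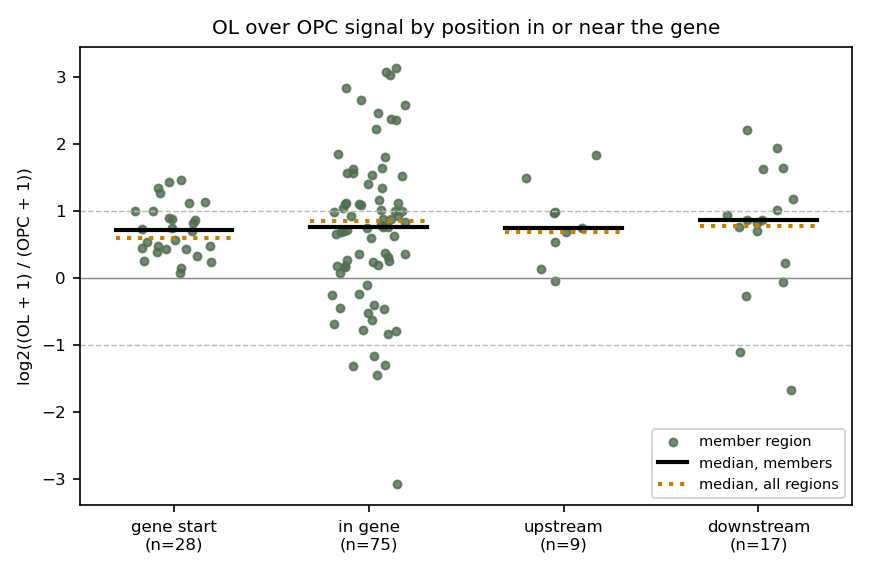
log2((OL + 1) / (OPC + 1)) of each member region by its position relative to the member gene, with the median of the members (solid bar) and of all regions of that position relative to any listed gene (dotted bar). All 28 regions at a start lie above 0, while the 75 inside genes run from -3.07 to 3.13.

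Of the 32 members with more than 1 region, 11 (34.4%) had regions of both directions, against 41.8% of the 8018 such genes in the table. They are Map2k1, Map2k6, Map3k7ip1, Map3k11, Map4k4, Map4k5, Mapk10, Mapk12, Mapk14, Mapkapk2 and Mapkapk3. By peak signal in place of the average, 11 members again had both directions, with Mapkap1 in and Map2k1 out. The sign of the ratio differed between average and peak at 6 member regions, 2 each in Mapkapk2 and Map4k5 and 1 each in Map2k1 and Mapkap1. In Map3k5 and Mapk4 no region had more OL signal.

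Genes that act above and below the cascade were taken from 8 lists with 116 genes, of which 103 had a region. Their median log2 ratio by highest region was 0.85, with 40 at 1 or more (38.8%, background 34.7%) and 2 at -1 or less (1.94%, background 4.19%). Of the 103, 100 had a call in OL (background 94.8% of genes) and 60 one in OPC (background 57.3%). For the counts at 1 or more and at -1 or less in each list below, the background is likewise 34.7% and 4.19% of genes.

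Upstream, the Ras activators and adaptors, which link receptors to Ras and Rap, had regions at 19 of 21 genes, 12 of them at 1 or more, 0 at -1 or less, and their median was 1.33. Rapgef1, an exchange factor for Rap1, had 19.96 in OL against 4.44 in OPC, and the FGF receptor adaptor gene Frs2 had 19.7 and 7.25. The Ras GTPases had regions at 11 of 12, 3 at 1 or more, with Mras and Rit2 the 2 at -1 or less, and their median was 0.56. Rap2a had 14.4 in OL and 5.84 in OPC, and Rras had 12.0 and 7.86. The Ras inhibitors had regions at 12 of 13, 3 at 1 or more, 0 at -1 or less, and their median was 0.36. Nf1, the gene of the Ras GTPase-activating protein neurofibromin, had 9.53 in OL and 10.96 in OPC, and Spred2, an inhibitor of Ras to ERK signalling, 4.78 and 9.20.

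Raf kinase and Ksr scaffold genes had regions at 6 of 7, 3 of them at 1 or more, 0 at -1 or less, and their median was 1.22. Braf, which encodes the main MEK kinase of the brain, had 25.9 in OL against 2.00 in OPC at a region downstream of the gene, and Araf had 10.7 and 2.44. Cascade kinases and adaptors with other symbols had regions at 14 of 17, 6 at 1 or more, 0 at -1 or less, and their median was 0.72. Tnik, a Ste20-type kinase gene with 16 regions, had 12.9 in OL and 1.85 in OPC, and Pak3 9.50 and 12.4. This list also holds Map3k20, the gene of the stress kinase ZAK, which the deposited table calls B230120H23Rik. It had 10.0 in OL against 1.54 in OPC at the highest of its 3 regions, none of them called in OPC.

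Downstream kinases had regions at 7 of 8 genes, 1 at 1 or more, 0 at -1 or less, and their median was 0.62. Rps6ka5, which encodes MSK1, had 15.4 in OL and 13.8 in OPC, and Mknk2 had 12.7 and 7.94. The transcription factors that MAP kinases act on had regions at 20 of 22, 7 at 1 or more, 0 at -1 or less, and their median was 0.84. Mef2c, a target of p38 and ERK5, had 48.4 in OL against 8.30 in OPC at a region 80039 bp into the gene, number 11 of all regions by OL signal, and Ets1 had 13.6 and 5.94. MAP kinase phosphatases, which switch the kinases off, had regions at 14 of 16, 5 at 1 or more, 0 at -1 or less, and their median was 0.91. Dusp1 had 8.75 in OL and 14.3 in OPC, and Dusp7 11.2 and 5.42.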

How the data were processed

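Nkx2.2 ChIP was sequenced in 1 OL and 1 OPC library. Per the file headers, the authors joined the intervals called in each library into regions and gave the average and peak signal per library, in units with no stated scaling. The submitters' processing notes name BWA, MACS 1.4.2 and build mm9. How the threshold was set and the input used is not given in the sources used here. Signal holds no read counts, so depth is unknown. Coordinates are as deposited, and whether starts count from 0 or 1 is not stated.

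Member regions were read by gene symbol with Python 3.11.15 and pandas 2.3.3. The ratio was computed on all 37271 regions with a pseudocount of 1 and no filter. Its code was checked on simulated signals without noise, built from the same formula. That check does not test how the ratio behaves on data like these. A start region lies within 1 kb of the deposited start, measured from its middle. No p-value is given, because each state has 1 library. Named were all MAP kinase and MAP2K genes with a region, the genes of the 10 highest regions per library, and all start regions. The genes of the 10 largest ratios per direction were named too, among member regions whose mean signal exceeds the median of all regions. So were the 5 genes with the most regions, and 2 genes per partner list. Other members were named after their values were seen, and 1 member, which enters all counts and medians, is not reported here by name. Symbols were matched to the RefSeq gene table of GRCm38.p6, used for names alone, which held 41 of the 44 as current symbols. The members and lists were chosen with earlier results of these data known. Alternatives were other pseudocounts, peak signal, centring, stricter calls, other start windows and regions of 1 gene.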

Additional observations from a re-analysis of the deposited data

How the results depend on the processing

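The main counts and medians depend on the scale. The median log2 ratio of the 129 regions, 0.77, was 0.65 with a pseudocount of 2, 1.09 with peak signal, 0.52 centred on regions called in both and 0.032 centred on all regions. The gene median, 0.84, was 1.11 with peak signal and 0.60 and 0.107 under these centrings. The partner median, 0.85, was 0.111 centred on all regions. Regions at 1 or more, 46 as reported, numbered 54 with a pseudocount of 0.5 (41.9%, background 42.7% of all regions). With a pseudocount of 2 they numbered 29 (22.5%, background 27.4%), and with peak signal 67 (51.9%, background 52.2%). Centred on regions called in both they numbered 30 (23.3%, background 27.2%), and centred on all regions 15 (11.6%, background 13.2%). Regions at -1 or less, 7 as reported, numbered 4 with a pseudocount of 2 (3.10%, background 4.59%). With peak signal they numbered 11 (8.53%, background 10.8%), and centred on all regions 16 (12.4%, background 17.5%). Among regions with a signal of 5 or more there were 3. Where a call needs a signal of 5 or more, regions called in both numbered 20 in place of 39 and OPC only 7 in place of 12. Regions called in OL only numbered 49 in place of 78 without those that list another gene, since fewer regions enter. With peak signal the cause was not tested, and the other changes follow from how the alternative is built. By peak signal the highest region changed sign at 3 genes, and at 0 of the 19 whose ratio lies past 1 or -1. Start regions numbered 26 within 0.5 kb and 33 within 2 kb. Centring on regions called in both moves every log2 ratio by 0.24 and on all regions by 0.74, after which 96 and 70 of the 107 regions with more OL signal still lay above 0. The median intervals used to judge a move were 95% order-statistic intervals over regions or genes, which cover no replicate error. No paired analysis was possible because each state has 1 library.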

Other observations

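Some regions of the cascade genes lie at the start of a neighbour. Of the regions more than 1 kb from the start of their member, 10 lay within 1 kb of the start of another gene, and all 10 had more OL signal, or 7 of the 10 with the median of all regions set to 0. Over all regions at a gene start, 86.4% had more OL signal. The highest of them had 9.0 in OL and 5.17 in OPC, 229 bp from the start of Pex16 and downstream of Mapk8ip1. Another had 8.33 in OL and 2.00 in OPC, 214 bp into Hdac10, a histone deacetylase gene, and downstream of Mapk12. A region 205 bp from the start of Men1, which encodes the chromatin protein menin, had 7.88 in OL against 4.29 in OPC and lay upstream of Map4k2. At the start of Cish, a suppressor of cytokine signalling, upstream of Mapkapk3, the values were 5.29 and 2.17. The other 6 lay at the starts of Tarbp2, Sf1, Ttc9b, Snapc2, Snapc5 and Mirn744. Of these 10 regions 3 were called in OPC (background 40.6% of regions at a gene start), those at Tarbp2, Sf1 and Pex16. To which of the neighbouring genes such a region belongs cannot be told apart from the deposited assignment. These regions were singled out after their values were seen.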
